A study of Danio rerio with 20 samples.

Results

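Glia support, insulate and feed neurons, and the genes described here mark the main glial lineages of the zebrafish nervous system or the enzymes and channels that those cells use. A rule named 10 genes (lhfpl3, gfap, glula, glulb, mbpa, plp1b, slc1a2b, cx43, olig2 and olig1), and the genes with a row in the deposited values were taken, which gave 6 of the 9368 genes listed. These were lhfpl3, glula, glulb, slc1a2b, cx43 and olig2. No row was found for gfap, mbpa, plp1b and olig1, also under the synonyms that RefSeq gives, and these 4 genes were not analysed here. lhfpl3 was selected on its lower values in exposed pools than in control pools, so its values against control are a description, with no test.

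Embryos of AB strain zebrafish, bred from F1 generation adults, were kept from the sphere stage until 72 hpf. They were held in embryo water alone (control) or with pH-neutralized HFPO-DA (GenX) added at 1 of 4 concentrations. The lowest was 0.5 mg/L, then 1 and 2 mg/L, and the highest 10 mg/L. HFPO-DA is a perfluorinated ether acid used in place of PFOA. RNA was taken from pools of 8 to 10 whole embryos, and the labels give no genotype difference between groups. Values of 19 pools were analysed, namely 3 control pools (a, b and c) and 4 pools (a to d) per exposure. A further control pool, which the labels call an outlier, was not analysed here, and every comparison with control shares the same 3 pools.

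In fish, radial glia stay in the brain after development and carry out much of what astrocytes do in mammals, including the clearing of glutamate and its conversion to glutamine. Mueller glia do the same in the retina, where they span the layers between photoreceptors and ganglion cells. Oligodendrocytes wrap central axons in myelin and arise from precursors that need the transcription factor Olig2, and at 72 hpf the first myelin sheaths of the larva are being laid down.

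The values were TMM-normalized, which means reads per gene divided by a library size that was corrected for composition. Reads on genes numbered 104350 to 581494 per pool, and 274326 to 395594 in the control pools. A value can be traced back to whole reads, so the reads behind each gene are given where they limit precision. Libraries were primed from the poly(A) tail and values were not divided by gene length, so levels are compared between pools and not between genes. The labels do not say whether the pools came from separate clutches, so the p-values measure the spread between these pools only. The test was limma, run on the log2 scale with 0.5 added to each value. It covered the 6933 genes above the study's minimum for the mean CPM, the count scaled to a fixed library total. An adjusted p under 0.1 was found for 0 genes in the exposed pools combined, at 0.5 mg/L, at 1 mg/L, among the 4 exposures or along log2 concentration, a share of 0% of the genes tested. At an unadjusted p under 0.05 these comparisons held 330, 430, 275, 310 and 330 genes. limma called 1 gene at 2 mg/L (zgc:73359) and 1 at 10 mg/L (hsp90aa1.2), or 0.0144% of the genes tested in each, and both genes are named here because of that call. In the combined comparison edgeR on the recovered reads called 5 genes, all lower (lhfpl3, prph2a, dpysl5b, ptgdsb.2 and zgc:73359), and DESeq2 called 0. In the other comparisons edgeR called 0 genes for both lower exposures, 2 and 1 for the higher ones, 3 among the exposures and 2 along concentration, DESeq2 called 0 apart from hsp90aa1.2 at 10 mg/L, and no gene of the rule was among these. For lhfpl3 this edgeR call is not independent evidence, since the gene was chosen by the same contrast.

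The filter on low values was passed by 5 of the 6 genes with a row, and not by slc1a2b. Of the 4 that could be tested against control, glula, glulb, cx43 and olig2, 0 were called in any comparison. Of these, glula, glulb and cx43 had a lower mean in each exposure than in control, and olig2 had a higher mean in the exposed pools. In whole-embryo RNA, fewer glial cells, less RNA per glial cell and a change in other tissues that make these genes cannot be told apart.

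**Figure D1:**
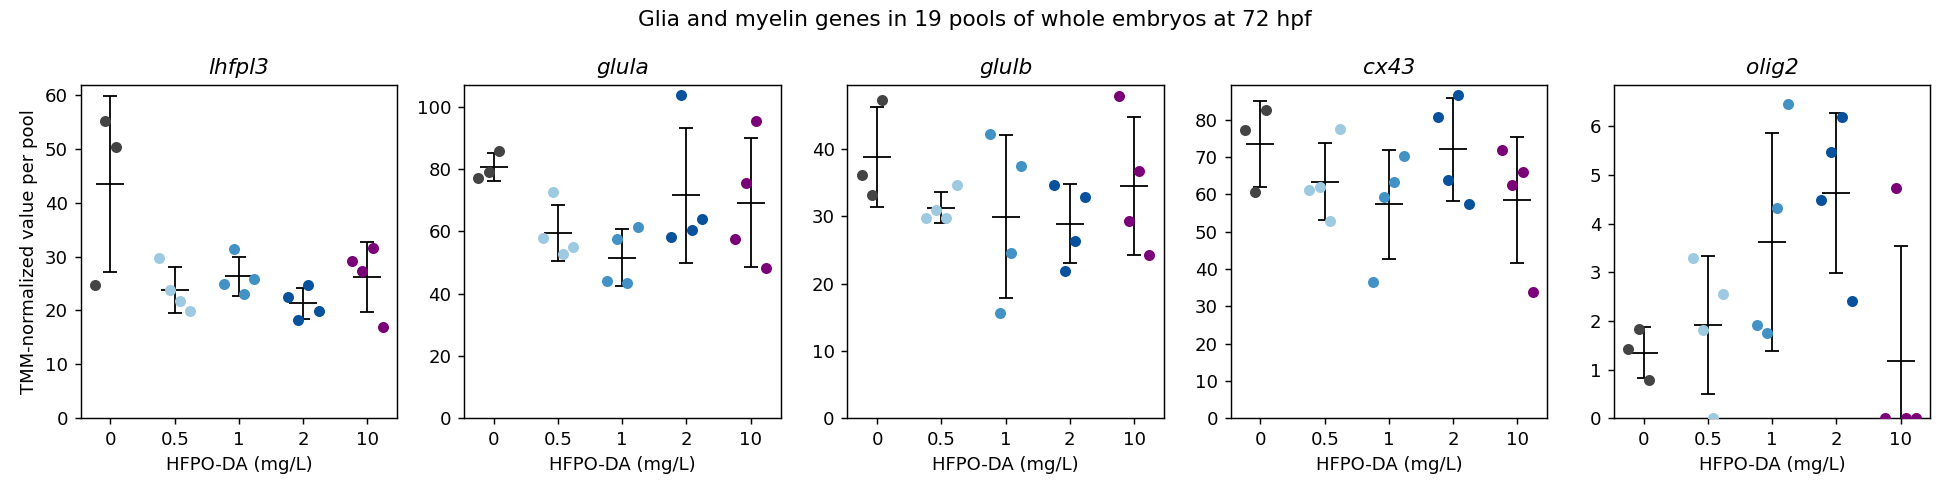
TMM-normalized value (vertical axis, linear, from 0) of 5 glial genes of the rule in each of 19 pools (points) against the HFPO-DA concentration in mg/L, with the mean (bar) and SD (whiskers) of each group of 3 control or 4 exposed pools. The myelin genes of the rule, mbpa and plp1b, had no row. For lhfpl3, control pools b (55.1) and c (50.3) lie above all exposed pools and control pool a (24.8) lies among them, and for glula the pools of 0.5 mg/L and 1 mg/L lie below the control pools.

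lhfpl3 encodes a tetraspan membrane protein of the LHFPL (lipoma HMGIC fusion partner-like) family, and in the mouse brain it is used as a marker of oligodendrocyte precursors. Its values in control pools a, b and c were 24.8, 55.1 and 50.3, from 35, 60 and 64 reads. The 4 pools of 0.5 mg/L had values of 29.7, 23.7, 21.7 and 19.9, and the pools of 1 mg/L had 24.9, 31.4, 23.1 and 25.9. The low and high pools thus did not split by exposure alone, since control pool a lay among the exposed pools. The pools of 2 mg/L had 22.4, 18.2, 24.8 and 19.8, and those of the highest exposure had 29.2, 27.4, 31.5 and 16.9. Control pools b and c were higher than all 16 exposed pools, and 9 of the 16 exposed pools were below control pool a, with pool c of 2 mg/L level with it to 3 digits. By comparison, 0.0865% of the genes tested had all 16 exposed pools below all control pools, and lhfpl3 was not one of them.

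The mean of lhfpl3 was 43.4 ± 16.3 over the control pools (SD, n = 3) against 24.4 ± 4.56 over the exposed pools (SD, n = 16), a combined log2 fold change of -0.76 (SE 0.22). For the single exposures, in order of rising concentration, the log2 fold change of lhfpl3 was -0.79 (SE 0.26), -0.64 (SE 0.26), -0.94 (SE 0.26) and -0.67 (SE 0.27). Each SE rests on 1 spread shared by all groups of its fit, whereas the control pools of lhfpl3 spread more than the exposed pools. The SE thus understate the uncertainty and are not a test. The fold changes depended on the control pools. Without control pool a the combined log2 fold change was -1.12, without pool b -0.55 and without pool c -0.61.

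The spread of lhfpl3 lay mostly in the control group. The variance of its reads relative to counting error alone (the dispersion index, which is 1 when pools differ by counting error only) was 8.21 in control pools, and from the lowest to the highest concentration it was 0.642, 0.299, 0.291 and 0.766. Pooled over the 5 groups the index was 1.6 for lhfpl3, and the median over the 2874 genes with a mean of at least 10 reads was 1.39. Within each exposure, the 4 pools thus differed in lhfpl3 by no more than their read numbers allow, whereas the 3 control pools differed by more.

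The values of lhfpl3 were also set beside each other among the exposed pools, as a description with no test, since low values in exposed pools were part of its choice. The means of the 4 exposures ran from 21.3 ± 2.89 (2 mg/L) to 26.3 ± 6.44 (10 mg/L; SD, n = 4 each). Its slope per doubling of the concentration over the 16 exposed pools was 0.01 on the log2 scale (SE 0.06), and an interval of 2 SE around it ran from -0.10 to 0.13.

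glula and glulb both encode glutamine synthetase, the enzyme that turns the glutamate taken up at synapses into glutamine. In the brain and retina it is a standard marker of astroglia and Mueller glia, and in vertebrates it is also made in tissues such as liver and muscle. The values of glula in control pools a, b and c were 77.3, 79.0 and 85.7, from 109, 86 and 109 reads. The pools of 0.5 mg/L had glula values of 57.8, 72.8, 52.9 and 55.1, and the pools of 1 mg/L had 44.1, 57.6, 43.3 and 61.5. All 8 of these exposed pools were below the lowest control pool. Groups with all exposed pools below all control pools were found for 4.14% of the genes tested at 0.5 mg/L and for 2.71% at 1 mg/L, and of the 4 glial genes of the rule open to this comparison glula was the only one at either exposure.

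At the higher concentrations the glula values spread further. The pools of 2 mg/L had 58.3, 104, 60.4 and 64.1, and those of the highest exposure had 57.6, 75.7, 95.4 and 48.4. Pool b of 2 mg/L and pool c of 10 mg/L were above all control pools, and the other 6 were below them. None of the 4 genes had all pools below control there, where 3.46% (2 mg/L) and 3.40% (10 mg/L) of the genes tested did. The dispersion index of glula was 0.319 in control pools but 4.25 and 4.63 for the pools of 2 and 10 mg/L, the reverse of the order seen for lhfpl3.

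The mean of glula was 80.7 ± 4.45 (SD, n = 3) in control pools. In exposed pools, in order of rising concentration, the mean was 59.7 ± 8.98, 51.6 ± 9.28, 71.7 ± 21.7 and 69.3 ± 20.8 (SD, n = 4 each). The difference of its 4 exposures from control was largest for 1 mg/L, where the log2 fold change was -0.66 (SE 0.20; limma unadjusted p = 0.00253, adjusted p = 0.973). It was -0.44 (SE 0.19; limma adjusted p = 0.793) for 0.5 mg/L, -0.21 (SE 0.19; adjusted p = 0.937) for 2 mg/L and -0.26 (SE 0.21; adjusted p = 0.967) for 10 mg/L. The value for 10 mg/L was -0.11 without its pool d and -0.43 without its pool c, and that for 2 mg/L was -0.13 without its pool a and -0.40 without its pool b. For the exposed pools combined it was -0.39 (SE 0.18; limma unadjusted p = 0.0298, adjusted p = 0.98), and 14 of 16 exposed pools were below all control pools. The share of all genes tested with such a count was not computed. Among the genes of the lists described below, sox2 also had 14 and opn1sw1 had 15. At an unadjusted p under 0.05 and in the lower direction the combined comparison held 2.34% of the genes tested. The differences among the exposures in glula did not pass the test either (moderated F 2.06, limma adjusted p = 0.964).

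glulb, the paralog of glula, had values of 36.2, 33.1 and 47.2 in control pools, from 51, 36 and 60 reads. The pools of 0.5 mg/L had 29.7, 30.9, 29.8 and 34.6, and the pools of 1 mg/L had 42.2, 15.7, 24.5 and 37.4. Those of 2 mg/L had 34.7, 21.9, 26.3 and 32.8, and the 10 mg/L pools had 47.9, 29.3, 36.7 and 24.2. The groups overlapped at every exposure, with 10 of 16 exposed pools below all control pools and pool a of 10 mg/L above them. The log2 fold change was -0.34 (SE 0.22) for the exposed pools combined (limma unadjusted p = 0.13, adjusted p = 0.98), and by exposure it lay between -0.45 (1 mg/L) and -0.20 (10 mg/L). Single pools moved these glulb values: the combined value was -0.19 without control pool c, that of 1 mg/L was -0.18 without its pool b, and that of 10 mg/L was -0.04 without its pool d. With the default settings that the paper names, HTSeq leaves out reads that map equally well to both copies. Both glula and glulb can thus be undercounted to that extent.

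cx43, listed in RefSeq as gja1b, encodes connexin 43, the main gap junction protein between astroglia. It is also made outside the nervous system, for example in the heart and fins, so its level in whole embryos is not a glial level alone. Its values were 77.3, 60.6 and 82.6 in control pools, from 109, 66 and 105 reads. Pools exposed to 0.5 mg/L had 61.1, 61.9, 52.9 and 77.6, and pools exposed to 1 mg/L had 36.5, 59.4, 63.4 and 70.2. Pools exposed to 2 mg/L had 80.7, 63.8, 86.7 and 57.4, and pools exposed to 10 mg/L had 71.8, 62.4, 66.0 and 33.9. The groups overlapped at every exposure, and 5 of 16 exposed pools were below all control pools. The lowest, pool d of 10 mg/L, was also the pool with the fewest reads on genes (104350) and held 14 reads of cx43. The log2 fold change of the exposed pools combined was -0.25 (SE 0.18; limma unadjusted p = 0.18, adjusted p = 0.98). From the lowest to the highest concentration it was -0.21, -0.38, -0.03 and -0.37, and the sign of the value for 2 mg/L changed with some of the pools left out and with quantile normalization. Without pool d the value for 10 mg/L was -0.13.

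**Figure D2:**
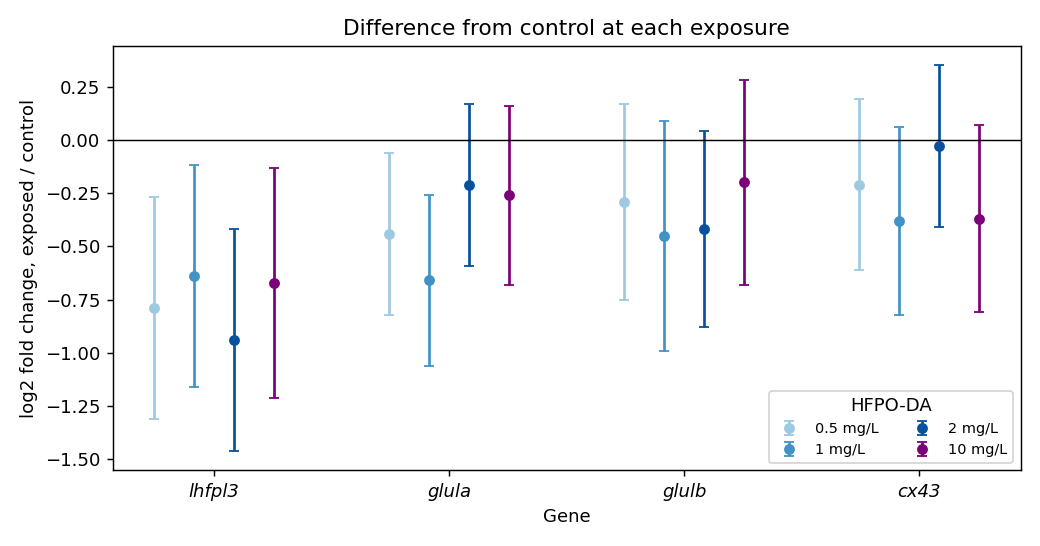
log2 fold change of each exposure against the 3 control pools (vertical axis) for lhfpl3, glula, glulb and cx43 (horizontal axis), with bars of 2 SE from limma and 1 colour per concentration of HFPO-DA. The points of lhfpl3 lie between -0.94 and -0.64 and those of glula between -0.66 and -0.21, and since the 4 exposures share the control pools the points of 1 gene are not independent. The SE assume 1 spread for all groups of a fit, so the bars of lhfpl3, whose control pools spread more, are too short and are not a test.

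olig2 encodes a transcription factor that sets aside the progenitors of motor neurons and oligodendrocytes in the ventral spinal cord and hindbrain. It was measured at the limit of depth, with 2, 2 and 1 reads in the control pools. The pools of 0.5 mg/L had 2, 1, 0 and 4 reads, and the pools of 1 mg/L had 1, 1, 3 and 14. The pools of 2 mg/L had 4, 3, 4 and 5 reads, and those of the highest exposure 0, 5, 0 and 0. All 4 pools of 2 mg/L thus had a higher value than all control pools, as did 2.05% of the genes tested, and 3 of the 4 pools of 10 mg/L had no read. Since control pools had so few reads, ratios are given with an exact 95% interval that covers counting error only. In order of rising concentration, the ratio to control was 1.53 (0.418 to 6.11), 3.63 (1.31 to 12.4), 2.9 (1.02 to 10.1) and 1.06 (0.244 to 4.61). For all exposed pools, with 47 reads against 5, it was 2.34 (0.937 to 7.55). In limma the smallest adjusted p of olig2 against control was 0.912, for 2 mg/L (unadjusted p = 0.0121), and the differences among the 4 exposures had an adjusted p of 0.964 (unadjusted p = 0.0317, F 3.16).

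slc1a2b encodes a glutamate transporter of the EAAT2 type, which clears glutamate from the synapse in astroglia. It had 1 read in 1 of 19 pools, pool a of 0.5 mg/L, and 0 reads in the other 18. The control pools together held 0 of 1015752 reads, which allows up to 2.95 CPM by counting error, so a difference in this gene was not detectable at this depth.

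Further genes of the same lineages were taken from lists. Of 26 other radial glia and astroglia genes, 16 had a row and 15 were tested, and 0 were called in any comparison. Over all exposed pools their median log2 fold change was -0.30, with 13 of 15 below 0, and without control pool a these were -0.28 and 13. The median over all 6933 genes tested was -0.05, with 3936 below 0. From the lowest to the highest concentration the median of this list was -0.14, -0.23, -0.27 and -0.03, so it was nearest to 0 in the 10 mg/L pools. In the combined comparison 1 of the 15 had an unadjusted p under 0.05, against 330 of all 6933 genes tested. This was sox2, the neural stem cell transcription factor, which is named because of that p. Its log2 fold change was -0.47 (SE 0.18; limma adjusted p = 0.98). sox2 had values of 49.6, 62.5 and 59.8 in control pools and a median of 41.3 in exposed pools, with a range from 24.6 to 52.9. The most abundant genes of the list were fabp7a, the brain fatty acid binding protein of radial glia, and the growth factor gene mdka. Their log2 fold changes were -0.04 (SE 0.11) and 0.03 (SE 0.12). A total of 4 of the 15 had a mean under 5 reads per pool, which limits what their fold changes can show.

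Of 4 other genes listed for Mueller glia, 2 had a row and were tested, rlbp1a and cahz, and the paralog rlbp1b had no row. Both genes tested are also made outside Mueller glia, so their values in whole embryos are not a Mueller glia level. rlbp1a and cahz had log2 fold changes of -0.44 (SE 0.29) and -0.14 (SE 0.23) in the combined comparison, with limma adjusted p of 0.98 for both. rlbp1a encodes the retinaldehyde-binding protein of the visual cycle, and its values were 22.0, 16.5 and 25.9 in control pools against a median of 16.6 in exposed pools (7.74 to 28.2). cahz encodes a carbonic anhydrase, and its values were 30.5, 25.7 and 27.5 in control pools against a median of 24.5 (12.7 to 40.1). The exposed range of both genes held all of their control values.

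The other oligodendrocyte and myelin genes lay close to the centre of all genes. Of 28 named, 18 had a row and 16 were tested, 0 were called in any comparison, and the median log2 fold change of the exposed pools combined was -0.06, with 10 of 16 below 0. For the single exposures, in the same order, the median was 0.04, 0.05, -0.04 and -0.09. The summed value of the list was 162, 151 and 167 in control pools and 128 to 197 in exposed pools. pmp22b, a peripheral myelin protein gene that is also made in other tissues, had a log2 fold change of -0.04 (SE 0.20), and the tetraspanin gene tspan2a had -0.40 (SE 0.25; limma adjusted p = 0.98). The precursor genes sox10 and pdgfra, both also active in neural crest derivatives, had 174 and 97 reads over all 19 pools and log2 fold changes of 0.07 (SE 0.35) and -0.17 (SE 0.49). plp1a, which encodes the proteolipid of myelin, had 141 reads and -0.31 (SE 0.40). A mean under 5 reads per pool was found for 7 of the 16, and for 4 of them each control pool held 3 reads or fewer. Without those 4 the median was -0.11, with 9 of 12 below 0.

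Other members of the LHFPL family had low counts. Of the 9 named, 3 were tested, lhfp, lhfpl2a and lhfpl5b, with 124, 86 and 15 reads over the 19 pools. lhfp had a log2 fold change of -0.50 (SE 0.46) and lhfpl2a of -0.16 (SE 0.47), and 0 of the 3 were called. No fold change is given for lhfpl5b, whose control pools held 2 reads or fewer each. An interval of 2 SE around the values of lhfp and lhfpl2a holds the -0.76 of lhfpl3. A difference of that size in them was thus not excluded at these counts.

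**Figure D3:**
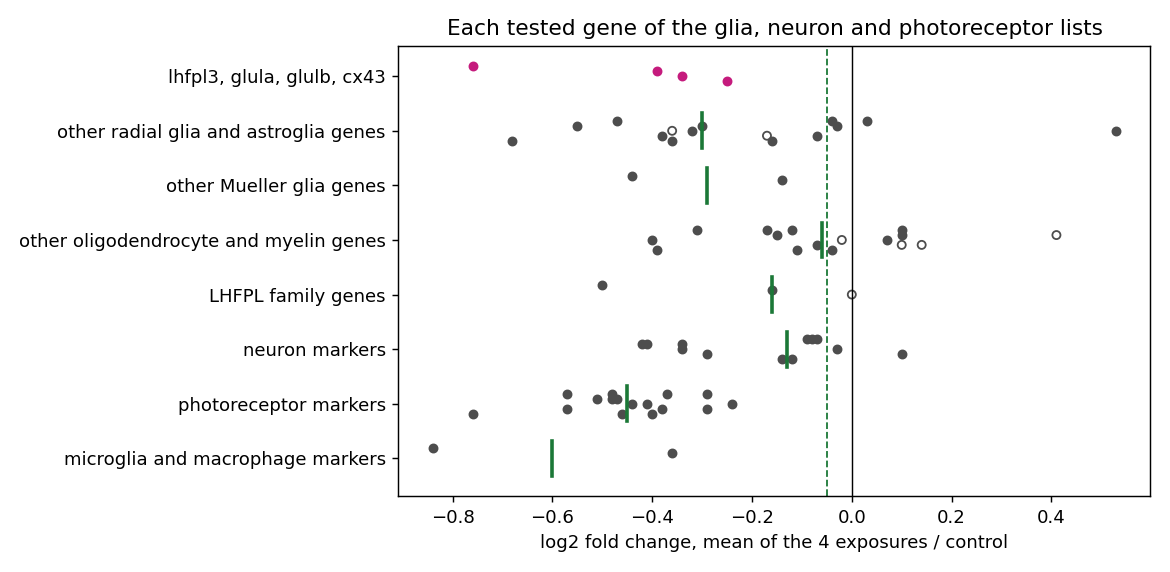
log2 fold change of the exposed pools combined against control (horizontal axis) for lhfpl3, glula, glulb and cx43 and for each tested gene of 7 marker lists (points), with the list median (green bar), the median of all genes tested (dashed line, -0.05) and 0 (black line), and with open points for genes with 3 or fewer reads in each control pool. The oligodendrocyte and myelin list is centred at -0.06, the radial glia and astroglia list at -0.30 and the photoreceptor list at -0.45.

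Neurons and photoreceptors were examined with the same lists, since these cells share tissue with the glia. The photoreceptor list had 16 genes tested, all 16 with a log2 fold change below 0 in the combined comparison, a median of -0.45, 13 with an unadjusted p under 0.05 and 0 called by limma. Over all 6933 genes tested, 330 had an unadjusted p under 0.05, and 162 of them were lower. Its most abundant genes were gngt2b, a cone transducin subunit, with a log2 fold change of -0.41 (SE 0.13), and the ultraviolet opsin gene opn1sw1, with -0.48 (SE 0.12; limma adjusted p = 0.465). The neuron list had 12 genes tested, 11 below 0, a median of -0.13, 5 with an unadjusted p under 0.05 and 0 called. stmn1b and atp1a3a, its most abundant genes, had log2 fold changes of -0.29 (SE 0.12) and -0.34 (SE 0.14). Without control pool a, limma called 31 of the 6933 genes, among them opn1sw1, prph2a and rho of the photoreceptor list and atp1a3a of the neuron list. The 2 microglia and macrophage genes tested, mpeg1.1 and coro1a, had 51 and 94 reads in all and log2 fold changes of -0.84 (SE 0.48) and -0.36 (SE 0.46). The photoreceptor and neuron lists include genes picked with earlier results of these pools known.

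Among the control pools, the summed photoreceptor value was lowest in pool a, as for lhfpl3, and highest in pool c, unlike lhfpl3. It was 3918, 4866 and 5197 in control pools a, b and c and 2749.7 to 5185 in exposed pools, with 15 of 16 exposed pools below control pool a and pool c of 10 mg/L, the highest exposed pool also for lhfpl3 (31.5), at 5185. The summed neuron value was 1447, 1953 and 1859 in control pools and 1346 to 1691 in exposed pools, so control pool a again lay among the exposed pools while b and c lay above all of them. The summed value of the other radial glia and astroglia genes was 1156, 1197 and 1284 in control pools and 970.4 to 1304 in exposed pools. Most of this sum came from fabp7a and mdka, with means of 651 and 236 in control pools, so it says little of the other genes of the list. Over the 16 exposed pools, after group means were subtracted, lhfpl3 had a Pearson r of 0.69 with the photoreceptor sum, 0.43 over the 14 pools without c and d of 10 mg/L, and of -0.10 with the neuron sum. These r describe pools in which both values share a library and its depth, and in which lhfpl3 varied within each exposure by no more than counting error. The part of photoreceptor and neuron content in the lhfpl3 values was not tested. For glula, unlike lhfpl3 and the neuron sum, control pool a (77.3) was close to pool b (79.0) and above 14 exposed pools. In the photoreceptor sum, control pool a was likewise above 15 of 16 exposed pools. Pool c of 10 mg/L was above control pool a in both. Over the same 16 exposed pools glula had an r of 0.62 with the photoreceptor sum, and 0.29 without pools c and d of 10 mg/L, which were the highest and lowest of that exposure in both values. In the pools of 2 mg/L, pool b was highest in both the photoreceptor sum (3777) and glula (104). Pool d was lowest in the photoreceptor sum (2749.7) and second highest in glula (64.1). The part of photoreceptor content in glula was not tested either.

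**Figure D4:**
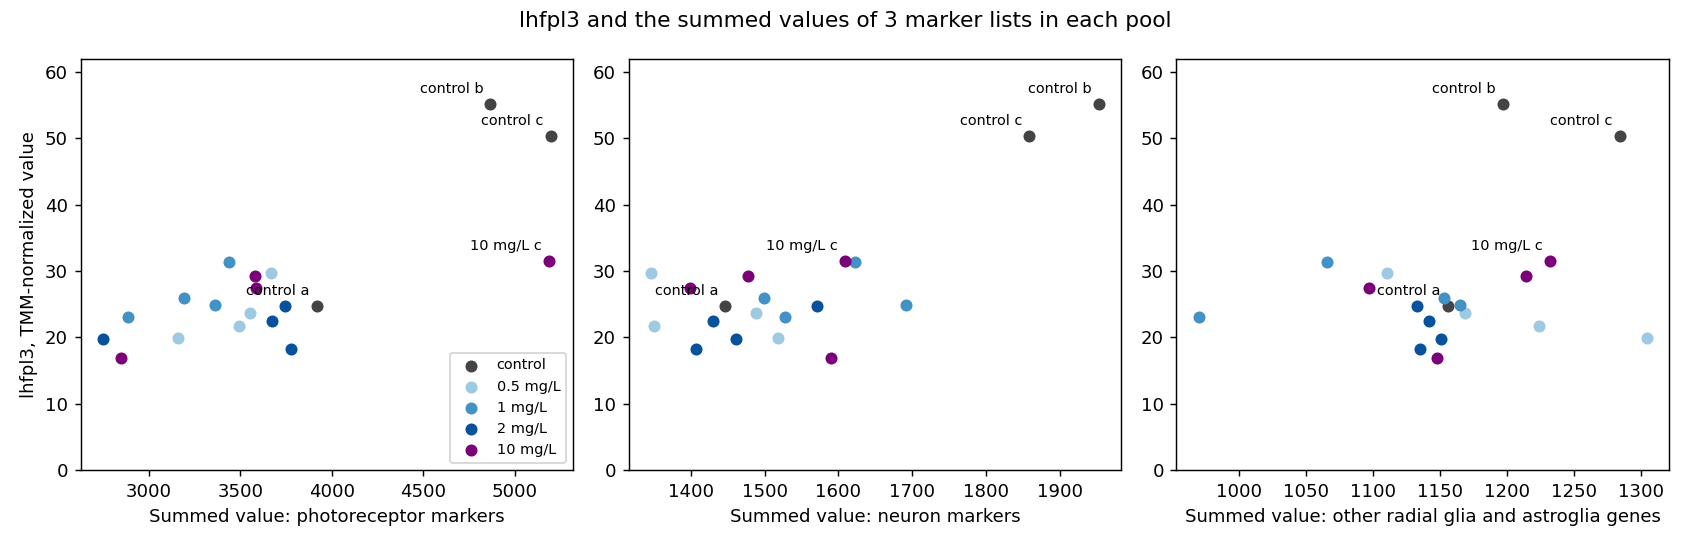
TMM-normalized value of lhfpl3 (vertical axis, from 0) against the summed TMM-normalized value of the photoreceptor, neuron and other radial glia and astroglia lists (horizontal axes, not from 0) in each of 19 pools, coloured by group. Control pools b and c stand apart at 55.1 and 50.3 for lhfpl3, while control pool a, at 24.8, lies among the exposed pools for lhfpl3 and the neuron sum (1447). Most of the radial glia and astroglia sum came from fabp7a and mdka.

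The genes whose values followed each glial gene most closely from pool to pool were found after each group mean had been subtracted, among the 1688 genes with a mean of at least 20 reads per pool. All pools share their library and depth between genes, and these are the highest of many values of r, so they are a description. For lhfpl3 they were pcsk1nl (Pearson r = 0.85 over 19 pools), which is related to the mammalian neuroendocrine protein proSAAS, znf1035, a zinc finger gene (r = 0.84), and mbd1b, of the methyl-CpG-binding family (r = 0.83). Against control, with all exposures combined, the log2 fold changes of these genes were -0.17, -0.03 and 0.01. Within the 16 exposed pools alone their r with lhfpl3 was 0.83, 0.74 and 0.71. In these pools lhfpl3 varied by no more than counting error (dispersion index 0.291 to 0.766 by exposure). These r therefore cannot tell whether the genes vary together.

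For glula the closest genes were rho, the rod opsin (r = 0.74), mdkb, a midkine growth factor gene (r = 0.73), and mrps28, of the mitochondrial ribosome (r = 0.73). rho had a log2 fold change of -0.40 in the combined comparison, mdkb of -0.26 and mrps28 of 0.00. For glulb they were ctbp2a, a transcriptional corepressor gene (r = 0.82), cnih1, a cargo receptor gene of the secretory pathway (r = 0.81), and crygn2, a lens crystallin gene (r = 0.77). For cx43 they were cox4i1, of cytochrome c oxidase (r = 0.83), mcm7, of the replicative helicase (r = 0.79), and rps26l, of the ribosome (r = 0.77). The r between pairs of lhfpl3, glula, glulb and cx43 was low, from -0.13 for glula with glulb to 0.33 for lhfpl3 with cx43. lhfpl3, glula, glulb and cx43 thus showed no close relation to each other from pool to pool within groups, but counting error limits what this can show. Over the 16 exposed pools, glulb had an r of 0.57 with the sum of the other radial glia and astroglia genes. Without pools c of 1 mg/L and d of 0.5 mg/L that r was 0.62. With the same sum over the 16 pools, r was -0.06 for lhfpl3, 0.09 for glula and 0.02 for cx43. Within the exposures the dispersion index of lhfpl3 was 0.291 to 0.766. A low r with lhfpl3 therefore cannot tell whether the genes vary together.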

How the data were processed

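Pools of 8 to 10 whole zebrafish embryos at 72 hpf were grouped by the concentration given in the sample labels. The authors extracted molecular identifiers with UMI-tools 1.1.2, trimmed reads with Trimmomatic 0.40, filtered out ribosomal RNA and mapped the rest with STAR. The paper names GRCz10 as the genome, while the labels list both GRCz10 and GRCz11. The authors then removed copies with the same identifier, counted reads on genes with HTSeq 0.13.5 and applied TMM normalization. They deposited this signal (TMM-normalized expression of 9368 genes in 19 pools), in which zeros stand as 0.5 reads. Each of the remaining values (100%) equals a whole number of reads within 0.001 reads, and these reads were recovered. No other columns of values were present (0). Transcript variants were counted as 1 gene, and no coordinates or sequences are given, since the RefSeq names used here belong to GRCz12tu.

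R 4.3.3 with limma 3.58.1 served for the two-sided main tests (a linear model per gene, then eBayes with the trend option). They used log2 values with a pseudocount of 0.5 and covered the 6933 genes above the study's minimum mean CPM, with Benjamini-Hochberg adjustment over all of them and a call at an adjusted p under 0.1. A fold change on this scale can understate the change of low genes. Zeros stand as 0.5 reads, which is a higher value in a pool with fewer reads. Median reads on genes per pool were 345832 in control and 188740, 167419, 215054.5 and 286989 in order of rising concentration. Low genes can thus also seem raised in exposed pools. With zeros set to 0 the median log2 fold change of all genes in the combined comparison was -0.11 in place of -0.05. Each exposure was compared with control in a fit of its own, and the combined comparison and the F test used 1 fit over 5 groups. The study's own test, noiseqbio, was not run. edgeR 4.0.16 and DESeq2 1.42.0 were used on the recovered reads as alternatives and called 5 and 0 genes in the combined comparison. A gene at 3 or fewer reads in each pool of a group gets no fitted fold change against it. All tests were checked on simulated reads, with 4-fold changes, or 2-fold per doubling of concentration for the slope. The changed genes had a mean of at least 10 reads. Smaller changes, such as those described for the members, were not simulated.

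The members, the marker lists and the rule for named genes were chosen with earlier results of these data known. That rule names the members, the 2 most abundant genes of each list, any list gene called, and for members with a mean of at least 10 reads the 3 genes with the highest r among genes with a mean of at least 20 reads. sox2, sox10, pdgfra, plp1a, lhfpl5b and the genes called by limma, edgeR or DESeq2 were named after their values were seen. Alternatives were other pseudocounts, filters, scalings, tools and thresholds, a block for the replicate letters, and leaving out each pool.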

Additional observations from a re-analysis of the deposited data

Results flagged for a closer look

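One value stood apart from the other pools of its group by Dixon's test at its 95% critical value for 4 pools. Pool b of 2 mg/L had a glula value of 104, while the other 3 pools of that exposure lay between 58.3 and 64.1, a gap of 0.872 of the group's range. In all, 20 groups of 4 pools (5 genes at 4 exposures) were examined, and chance flags about 1 in 20. Without this pool the log2 fold change of glula at 2 mg/L was -0.40 in place of -0.21.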

How the results depend on the processing

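Of 424 alternative values of the 20 log2 fold changes of lhfpl3, glula, glulb and cx43, 6 changed sign, all for cx43 at 2 mg/L (-0.03), which became 0.01 with quantile normalization and 0.07 with a replicate block and ranged from -0.17 to 0.07 when 1 pool was left out. glula, glulb and cx43 were called under 0 alternatives. lhfpl3 moved by more than the spread between pools only without control pool a, to -1.12 combined and to as low as -1.30, for 2 mg/L. Rescaling to CPM moved the median of all genes in the combined comparison from -0.05 to -0.14, and lhfpl3 to -0.80. No fitted fold change of olig2 is given, since control pools had 3 or fewer reads.

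Counts of called genes depended on control pool a. In the combined comparison the count was 0, ranged from 0 to 31 with 1 pool left out (31 without control pool a), and was 1 with quantile normalization and 5 with edgeR. The 31 hold opn1sw1, rho and prph2a of the photoreceptor list, atp1a3a of the neuron list and 0 genes of the other lists. At 0.5 mg/L it was 0, ranged from 0 to 46 (46 without control pool a) and was 29 with a replicate block. At 1 mg/L it was 0, ranged from 0 to 1 (1 without pool a of 1 mg/L), and was 2 with a replicate block and 1 with no filter. At 2 mg/L it was 1, ranged from 0 to 8 (8 without control pool a), and was 3 with a replicate block, 2 with no filter, 2 with edgeR and 0 with 1 fit over 5 groups, CPM, zeros set to 0, quantile normalization, a pseudocount of 0.1, no trend, a filter of 10 CPM, DESeq2 or an adjusted p under 0.05. At 10 mg/L it was 1, ranged from 0 to 3 (3 without control pool a), and was 2 with no filter and 0 with 1 fit over 5 groups, zeros set to 0, no trend, a filter of 10 CPM or an adjusted p under 0.05. Among the exposures it was 0, and 3 with edgeR. Along concentration it was 0, ranged from 0 to 2 (2 without pool a of 10 mg/L), and was 1 with a replicate block, 1 with no filter and 2 with edgeR. The causes were not tested.

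The replicate letters of the labels were not taken to pair the pools. Same-letter pools of different groups had a mean r of 0.05 (-0.18 to 0.39, 36 pairs, 14 over 0.1). Pools with other letters had a mean r of -0.02 (-0.24 to 0.28, 108 pairs, 12 over 0.1). A larger share of the same-letter pairs was thus over 0.1, and what such pools share was not tested. With a replicate block lhfpl3 had a combined log2 fold change of -0.68, and glula -0.36. At 1 mg/L glula had -0.74 with the block (limma adjusted p = 0.285) and -0.66 without it (adjusted p = 0.973). At 10 mg/L glula had -0.11 with the block and -0.26 without it. The control pools analysed held no pool d, and leaving out pool d of 1 mg/L also gave -0.74.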
